A study of Mus musculus with 2 samples.

Results

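The regions described here are the BUD31 peaks that the authors annotated to the 3′ untranslated region (UTR) of a protein-coding gene. They were chosen by 2 columns of the deposited peak list, the annotation class and the kind of gene. There were 783 of them, 4.79% of all 16331 peaks and 5.43% of the 14411 peaks of protein-coding genes, and they named 652 of the 2710 protein-coding genes in the list. The data come from RNA immunoprecipitation sequencing (RIP-seq) of testicular germ cells, isolated by enzymatic digestion in 2 steps, of C57BL/6J mice aged 14 days. An anti-BUD31 antibody gave 1 library, and 10% of the total RNA gave the other, the input. Both libraries came from the same kind of cells, and no genotype or drug treatment differed between them. The list gives positions only, with no count, fold or score, so the depth and the strength of each peak are unknown. Neither group was replicated, and no p-value is given. The intervals below are Wilson 95% intervals, which cover counting error over peaks or genes only, and neither peaks nor genes are replicates.

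BUD31 is a protein of the spliceosome, the complex that removes introns from precursor mRNA. Introns exist only in the precursor, whereas the 3′ UTR stays in the mature mRNA, where RNA-binding proteins and microRNAs act on stability and translation. Male germ cells are known for widespread use of alternative 3′ ends and for translational control through 3′ UTRs. The design addresses which RNAs came down with the anti-BUD31 antibody. Neither library was a control immunoprecipitation, so RNA recovered with BUD31 and RNA recovered nonspecifically cannot be told apart. A 3′ UTR peak and an intron peak of the same gene describe different stretches of its transcripts.

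Sequence landmarks inside the regions were few. Small RNA genes lay within 3 of the 783 peaks (0.383%, 0.130% to 1.12%), and microRNA hairpins within 2 of these. The mature microRNAs are shown because they are the annotated regulatory sequences that these peaks hold, with capitals marking the seed, bases 2 to 8, which pairs with target mRNAs. They are from RefSeq on the GRCm38.p6 assembly, which is mm10. The 3800 bp peak of Ctdsp2, a phosphatase of the RNA polymerase II tail, at chromosome 10, 126995401 to 126999200, covers the hairpin of Mir26a-2 (chr10:126995530-126995613, plus strand, as Ctdsp2) and that of Mir546 (chr10:126998440-126998560). The 820 bp peak of Sptssa, a subunit of the first enzyme of sphingolipid synthesis, covers the hairpin of Mir1892 (chr12:54645933-54646012, minus strand, as Sptssa).
mmu-miR-26a-5p: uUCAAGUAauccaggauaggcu
mmu-miR-26a-2-3p: cCUGUUCUugauuacuuguuuc
mmu-miR-546: aUGGUGGCacggaguc
mmu-miR-1892: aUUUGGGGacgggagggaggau
The 4 sequences have 4 different seeds. No peak in the list is named for these 3 microRNA genes, and the list has no strand. RNA of the host gene and of the microRNA precursor therefore cannot be told apart there. The remaining small RNA gene was Gm23676, a small nuclear RNA gene of 105 bp inside the peak of Fam228b.

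The positions of the peaks are given first against gene ends from a RefSeq table. The class itself places these peaks near gene ends, and their transcripts are RefSeq records too, so the distances are a description of the class. A gene's strand was known for 621 of the peaks. Of these, 137 (22.1%, 19.0% to 25.5%) covered the last annotated base of the gene, and 377 (60.7%, 56.8% to 64.5%) covered it or lay within 1000 bp of it. Within 1000 bp stood 19.4% of 428 exon peaks (15.9% to 23.4%) and 2.06% of 9711 intron peaks (1.80% to 2.36%). The median 3′ UTR peak ended 601 bp before the gene's last base, and its centre lay at 96.5% of the gene's length from the 5′ end, against 66.1% for exon peaks and 46.9% for intron peaks. Most of the 3′ UTR peaks, 482 of 621, stopped short of the last base. Where a peak did cover the end, it ran on past it by a median of 308 bp (interquartile range 119 to 683 bp). At the 1000 bp limit, the peak of Fbxo21 was just inside, at 998 bp before the end, and that of Rcor3 just outside, at 1010 bp.

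**Figure D1:**
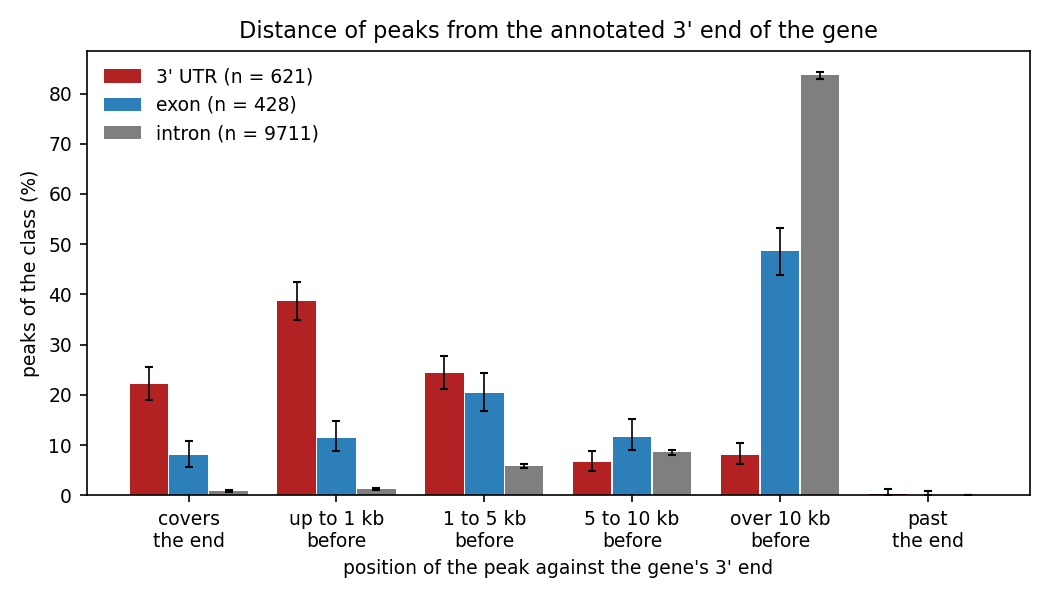
Position of peaks against the annotated 3′ end of their gene, as a percentage of the peaks of each class. Bars are shares of peaks, error bars are Wilson 95% intervals, and colours are the classes. The 2 groups nearest the end hold 22.1% and 38.6% of 3′ UTR peaks, whereas 83.6% of intron peaks lie over 10 kb before it.

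A minority of 3′ UTR peaks lay far inside the gene. There were 50 peaks (8.05%, 6.16% to 10.5%) more than 10 kb before the last base, and 21 (3.38%) had their centre in the first 50% of the gene. Rufy3, at 9817 bp, and Txlng, at 10024 bp, stood on either side of the 10 kb limit. The class follows the transcript that the authors' annotation named, and 382 peaks (48.8%) were named by RefSeq models with XM accessions, which are computed predictions, and 401 by curated NM records. Of the peaks named by XM models 11.9% (8.74% to 16.1%) lay over 10 kb before the end, against 4.39% (2.63% to 7.23%) of those named by NM records. Gpatch2, which encodes a G-patch domain protein, held the farthest peak, 136945 bp before the end. All 8 of its 3′ UTR peaks were named by XM models. In Cox16, a cytochrome c oxidase assembly factor, a 4100 bp peak lay 111019 bp before the end and was named by an NM record. That peak also lies wholly inside Gm20498, a coding gene on the same strand. Efcab11 had a peak 133376 bp before the end, and Itsn1, an endocytic scaffold, had one at 89991 bp. By contrast 2 peaks lay wholly past the gene: that of Egr2, an early growth response transcription factor, by 2813 bp, and that of Gm21680 by 1911 bp. The Egr2 peak lies wholly inside Ado, a coding gene on the opposite strand.

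Peaks of this class had a median width of 1230 bp (interquartile range 615 to 2600 bp), from 200 to 20600 bp. Widths are whole multiples of a bin of 200 to 230 bp, depending on the chromosome. Exon peaks had a median of 1200 bp (410 to 2400 bp) and intron peaks of 1400 bp (615 to 3200 bp), so the middles of the 3 classes lay close together. The upper tail differed more. At least 5000 bp wide were 58 3′ UTR peaks (7.41%, 5.77% to 9.46%), against 9.74% of exon peaks (7.5% to 12.5%) and 14.2% of intron peaks (13.6% to 14.8%). At least 10000 bp wide were 9 (1.15%, 0.606% to 2.17%), against 4.56% of intron peaks (4.21% to 4.95%). A single bin was the width of 98 3′ UTR peaks (12.5%, 10.4% to 15.0%) and of 13.1% of intron peaks (12.5% to 13.7%). Among exon peaks the share was higher, at 18.5% (15.5% to 22.1%). No test was possible for these differences. Abcb8, at exactly 5000 bp, and Ston2, at 4920 bp, stood on either side of the lower limit. Pggt1b, at 11000 bp, was the narrowest above 10000 bp, and Sned1 and Dnm3 followed below it at 9840 bp each.

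**Figure D2:**
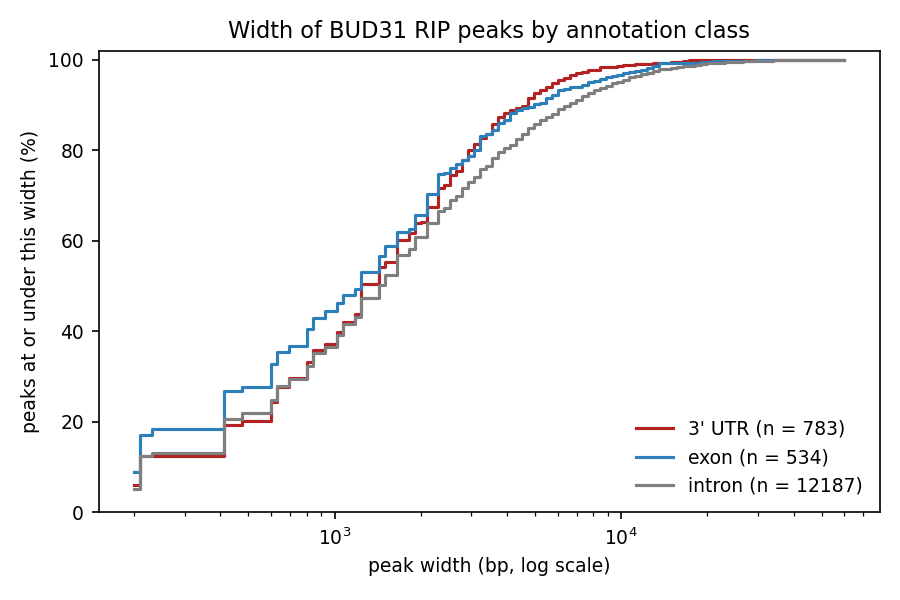
Cumulative share of peaks (%) by peak width in bp on a log axis, for 783 3′ UTR, 534 exon and 12187 intron peaks of protein-coding genes. The medians are 1230, 1200 and 1400 bp. Below them the 3′ UTR and intron curves run close together and the exon curve lies above both. At 410 bp the curves stand at 19.4%, 26.8% and 20.7% in the same order. The intron curve lies to the right in the upper part.

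The widest 3′ UTR peaks belonged to genes of several functions. Fam13b, a gene of a numbered family, had the widest, 20600 bp at chromosome 18, 34439401 to 34460000, and 3398 bp of it also overlap Pkd2l2. Eif4e2, a cap-binding protein that represses translation, had one of 16195 bp that covered 58.1% of the gene and ran over its end. A stretch this long can hold introns and coding exons as well as the UTR, since a peak has only 1 class. Zfp407, a zinc finger protein, had 16000 bp, and Chic1, a membrane-associated protein on the X chromosome, had 14260 bp. Rock2, a kinase of actomyosin contraction, had 13325 bp, of which 4623 bp overlap Pqlc3 on the opposite strand. Smad2, a mediator of activin and TGF-β signals, had 12400 bp, AW554918 had 12200 bp and Pggt1b, a subunit of a prenyl transferase, had 11000 bp. Each of these genes also had intron peaks, from 1 in Eif4e2 to 33 in Zfp407. Next by width was Dnm3, a dynamin of membrane fission, whose 9840 bp peak overlaps a long noncoding RNA gene over 64.3% of its width.

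Of the 652 genes, 493 (75.6%, 72.2% to 78.8%) also had an intron peak and 116 (17.8%, 15.0% to 20.9%) also had an exon peak under the same gene number. Both were found in 106 (16.3%), intron peaks without exon peaks in 387 (59.4%), and exon peaks without intron peaks in 10 (1.53%). Neither was found in 149 (22.9%, 19.8% to 26.2%), and for 136 (20.9%) the 3′ UTR peaks were the gene's only peaks of any class. Among the 2058 protein-coding genes in the list without a 3′ UTR peak, 86.9% had an intron peak (85.4% to 88.3%) and 18.4% an exon peak (16.8% to 20.1%). Those genes had to have a peak of another class to be listed, which the 652 did not, so these shares are not a like-for-like comparison. Exon peaks of 11 of the 116 genes were named only by noncoding transcripts of the gene. A 5′ UTR peak was found in 22 of the genes (3.37%), and a downstream peak in 17 (2.61%, 1.63% to 4.14%). The downstream share was 4.76% of the other coding genes (3.92% to 5.77%). A downstream peak alone can place such a gene in the list, so these shares are not like for like either. The running numbers of the list reach 65288 and 48957 of them have no peak, so a gene without an intron peak here was not shown to lack one in the longer set.

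The share with an intron peak was higher in longer genes. It was 44.9% (37.1% to 53.0%) of 147 genes under 20 kb, 80.9% of 194 genes of 20 to 50 kb, 84.6% of 169 genes of 50 to 100 kb and 90.7% (84.8% to 94.5%) of 140 longer genes. The share with an exon peak was 11.6%, 17%, 18.3% and 25% in the same order. Genes with an exon peak showed intron peaks in 36.7%, 91.5%, 93.5% and 94.0% of cases, and the intervals of the 2 kinds of gene overlapped in each span group, narrowly between 20 and 50 kb (74.8% to 85.8% and 85.0% to 95.3%). The 2 kinds share genes. The median span was 46.6 kb for genes with a 3′ UTR peak and 20.2 kb for those with no other peak. It was 39.6 kb for genes with an exon peak, 37.4 kb for protein-coding genes with any peak, and 17.9 kb for all protein-coding genes on these chromosomes. A span above that of all coding genes was therefore shared by genes with peaks of other classes.

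**Figure D3:**
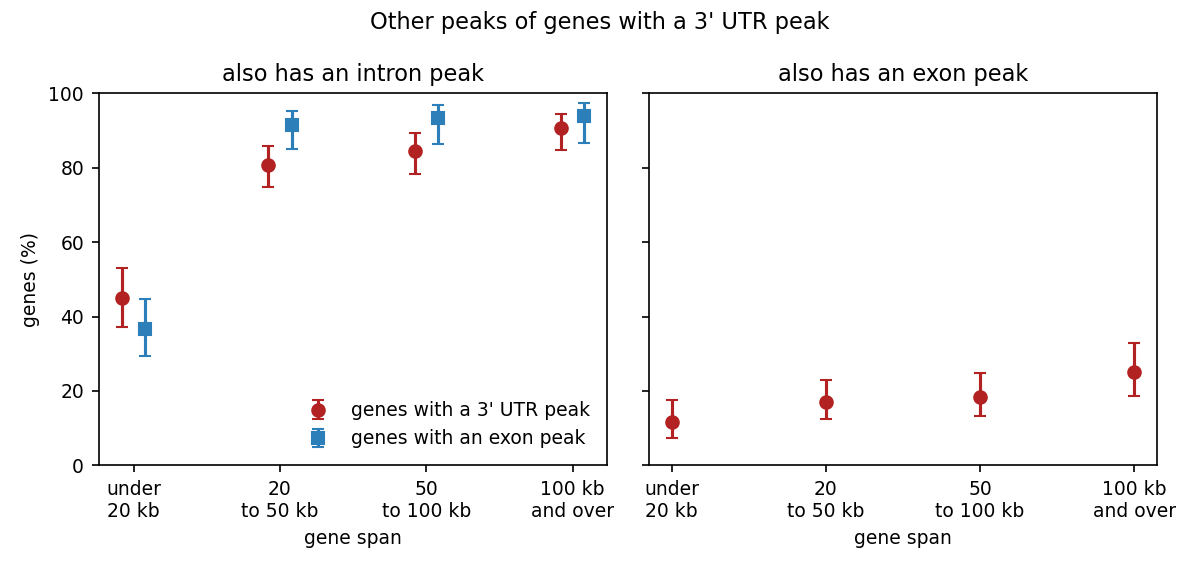
Share of genes (%) that also have an intron peak (left) or an exon peak (right), by gene span, for genes with a 3′ UTR peak (circles) and, on the left, genes with an exon peak (squares), with Wilson 95% intervals. Intron peaks accompany 44.9% of 3′ UTR peak genes under 20 kb and 90.7% of those of 100 kb and over.

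Within a gene the 3′ UTR peak was usually the last. In 369 of 388 genes with both kinds and a known strand (95.1%, 92.5% to 96.8%) a 3′ UTR peak lay farther 3′ than every intron peak, which the annotation of the class makes likely by itself. The widest 3′ UTR peak was wider than the gene's median intron peak in 249 of 493 genes and narrower in 226. Setting a widest peak against a median favours the 3′ UTR side in genes with several 3′ UTR peaks. In the 73 genes with exactly 1 peak of each kind the 3′ UTR peak was wider in 37 (50.7%, 39.5% to 61.8%) and narrower in 33. The nearest other peak of the gene was an intron peak for 392 of 656 3′ UTR peaks (59.8%), another 3′ UTR peak for 189 (28.8%) and an exon peak for 46 (7.01%). The median gap to it was 1230 bp (410 to 5954 bp), and for 130 peaks (19.8%) it was a single empty bin.

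Most genes, 564 of 652 (86.5%), had a single 3′ UTR peak, 64 had 2, 16 had 3 and 8 had 4 or more. Gpatch2 had 8, from 205 to 2460 bp wide, together with 51 intron peaks. Its 3′ UTR peaks formed 1 cluster of 6 over 6765 bp near the 5′ part of the gene and 2 single peaks farther on. Syt14, a synaptotagmin of membrane traffic, had 7 over a stretch of 7585 bp, beside 54 intron peaks. Abl2, a non-receptor tyrosine kinase, had 5 over 4510 bp, separated by gaps of 205 or 410 bp. Their widths were 205, 820, 205, 205 and 2050 bp. Cep170, a centriole appendage protein, had 5 between 205 and 1640 bp, and Enah, an actin regulator, had 5 between 205 and 1845 bp. Rfwd2, an E3 ubiquitin ligase, had 5, with widths of 4100, 2870, 1845, 205 and 205 bp in the direction of transcription. Ino80d, a subunit of the INO80 chromatin remodeller, had 4 over 11685 bp. Strbp, a spermatid RNA-binding protein, had 4 of 400 to 1200 bp and was the only gene of these 8 outside chromosome 1. Among the 16 genes with 3 was Atf6, a transcription factor of the unfolded protein response, with peaks of 410 to 1435 bp. Joining 3′ UTR peaks of a gene up to 1000 bp apart turned the 783 peaks into 692 stretches, of which 67 held 2 or more.

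**Figure D4:**
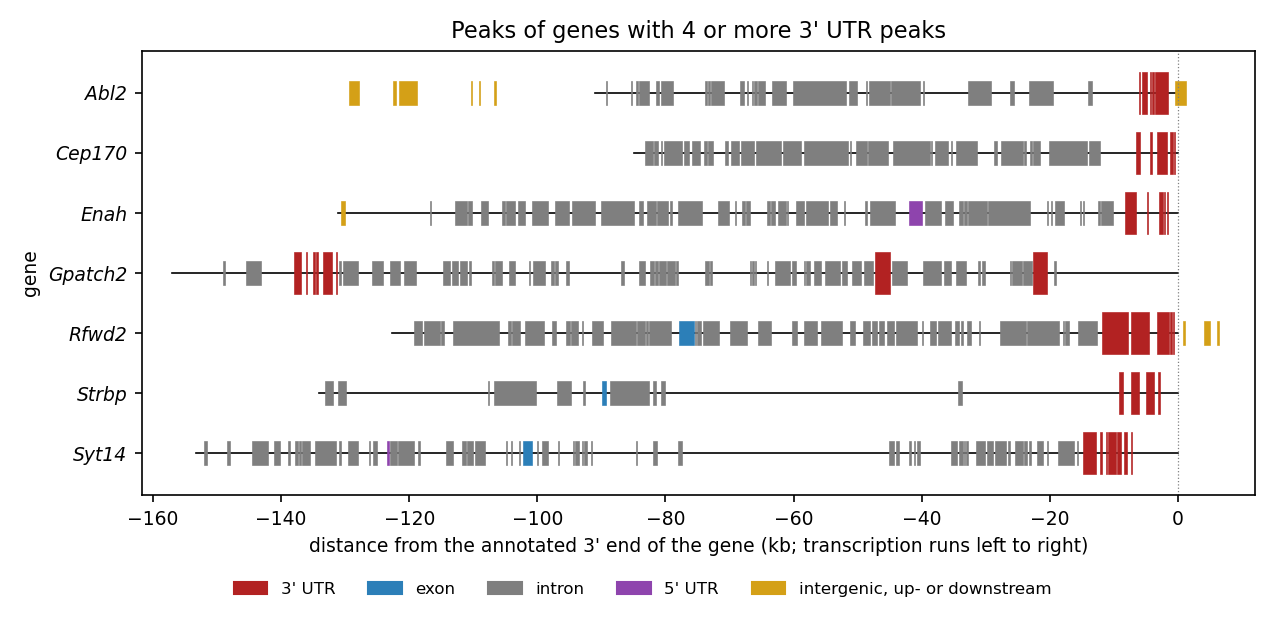
Peaks of the 7 genes with 4 or more 3′ UTR peaks and a known strand, placed by distance in kb from the annotated 3′ end. Boxes are peaks, tall for 3′ UTR peaks, colours are the classes and black lines are the genes. In 6 genes the 3′ UTR peaks lie together in the last part of the gene, whereas 6 of the 8 in Gpatch2 lie over 130 kb before it.

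Genes with 3′ UTR peaks only were shorter and their peaks narrower, with a median of 1000 bp (600 to 1800 bp) over 148 peaks, against 1400 bp (615 to 2760 bp) over the 635 peaks of the other genes. Of these 136 genes 127 had a single peak. The widest belonged to Kcnj13, an inwardly rectifying potassium channel, with 9635 bp at chromosome 1, 87380021 to 87389655. That peak lies wholly inside Gigyf2, a coding gene on the opposite strand that has peaks of its own. The predicted genes Gm33869 (8200 bp) and Gm36527 (6765 bp) followed, and their peaks lie wholly inside Nova1 and Rnf2. Tmem186, at 5200 bp, was covered over 82.1% of its length. Prrg3 had 4830 bp, and Atp6ap1, an accessory protein of the proton pump, had 4600 bp. Mettl1, a tRNA methyltransferase, had 4400 bp, Coa5, a cytochrome c oxidase assembly factor, and Tmem206, a chloride channel, had 3690 bp each, and Acox3, an enzyme of peroxisomal lipid oxidation, had 3600 bp.

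Over all 783 peaks, 94 (12%, 9.91% to 14.5%) overlapped another gene by at least 1 bp, and in 62 (7.92%) another gene covered at least 50% of the peak. Another coding gene was overlapped by 65 peaks (8.30%), on the opposite strand in 40 and on the same strand in 7, with the strand unknown for the other 18. These peaks made 60 distinct gene pairs, and in 38 of them (63.3%, 50.7% to 74.4%) the other gene had a peak named for it elsewhere in the list. Of all coding genes on chromosomes with peaks 18.8% had any peak. On well covered chromosomes the share was 21.8% for spans under 20 kb and 56.2% for 50 to 100 kb. The pairs were not matched for span or chromosome, so whether 38 of 60 is high was not tested. A 7380 bp peak of Adcy3, an adenylyl cyclase, lies wholly inside Cenpo, a kinetochore gene on the opposite strand. The single peak of Bud31 itself, 400 bp at chr5:145147801-145148200 over the gene's 3′ end, lies wholly inside Ptcd1 on the opposite strand. The gene of the cyclin-dependent kinase Cdk2 had no 3′ UTR peak, and its 1 peak was annotated as exon.

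Genes for mRNA decay and deadenylation, the machinery that acts from the 3′ end of mRNAs, had 3′ UTR peaks in 8 of 37 members on chromosomes with peaks (21.6%, 11.4% to 37.2%). Over all protein-coding genes there the share was 4.37% (649 of 14867). On chromosomes where at least 10% of coding genes had any peak, the share was 8.23%, against 0.585% on the other chromosomes, and all 8 members lay there, among 22. Dcp2, the mRNA decapping enzyme, had 6600 bp and 1 intron peak. Btg1 and Btg2, antiproliferative proteins that recruit the deadenylase, had 2200 and 2050 bp, over 37.8% and 47.8% of these short genes, and no other peak. Among CCR4-NOT deadenylase subunits, Cnot11 had 1640 bp, Cnot6l had 2 peaks of 800 bp in sum, Cnot9 had 205 bp and Cnot2 had 200 bp. The Cnot9 peak lies wholly inside Usp37 on the opposite strand. The median summed width was 1220 bp, against 1610 bp over all 652 genes. A 3′ UTR peak was found in 0 of 22 cleavage and polyadenylation genes (which allows a share of up to 14.9%), of which 11 had a peak of some class, and in 0 of 14 microRNA machinery genes (up to 21.5%), of which 2 had any peak. Both intervals hold the 4.37% of all coding genes.

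SR and hnRNP proteins and related splicing regulators had 3′ UTR peaks in 8 of 45 genes (17.8%, 9.29% to 31.3%), against 4.37% of all coding genes. Some peak was found in 23 of the 45. On the well covered chromosomes it was 2 of 16 (12.5%), against 8.23% of all coding genes there. So 6 of the 8 lay on chromosomes 2, 15 and 17, where few genes had peaks. There 1.57%, 1.29% and 0.472% of coding genes had a 3′ UTR peak. Mbnl3, a muscleblind splicing factor, had the widest, 8050 bp, with 11 intron peaks. Srsf6 had 2000 bp over 30.7% of the gene, and Srsf3 had 800 bp. Celf1, which binds GU-rich elements, had 3 peaks of 200, 600 and 800 bp at 5097, 2697 and 697 bp before its end, and no other peak. Hnrnpa1 (800 bp), Srrm2 (600 bp) and Srpk1, a kinase of SR proteins (400 bp), likewise had no intron or exon peak. Hnrnpdl had 200 bp beside 1 exon peak. The median summed width was 800 bp. In the core spliceosome list Sf3b1, a branch site factor (3485 bp), and Bud31 had 3′ UTR peaks, 2 of 44 genes (4.55%, 1.26% to 15.1%). RNA-binding proteins of germ cells and 3′ UTRs had them in 4 of 39 (10.3%, 4.06% to 23.6%), with a median of 1100 bp. These were Caprin1 (1800 bp) and Larp4 (1200 bp), which bind mRNA in the cytoplasm, Cpeb2, a regulator of cytoplasmic polyadenylation (1000 bp), and Fmr1, a translational repressor (690 bp). Larp4 and Cpeb2 had no other peak. The intervals of the core spliceosome list and of this list hold the 4.37% of all coding genes.

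The germ cell lists had shares on both sides of the 4.37% of all coding genes, and each interval held it. Of 33 meiotic prophase genes 18 had some peak and 1 (3.03%, 0.537% to 15.3%) had it in the 3′ UTR: Mlh3, a crossover factor, with 2870 bp over its end. Among all protein-coding genes with a peak 23.2% had one there. Of 13 piRNA pathway genes 2 did (15.4%, 4.33% to 42.2%): Tdrd5, of the chromatoid body (2460 bp), and Mybl1, a factor that activates pachytene piRNA loci (615 bp). Each also had an exon peak and at least 6 intron peaks. Of 18 spermatogonia markers 1 did (5.56%, 0.988% to 25.8%): Taf4b, a germ cell TFIID subunit (1800 bp), and 1164 bp of its peak also overlap a long noncoding RNA gene. Of 20 spermatid genes 1 did (5.0%, 0.888% to 23.6%): Odf2 of the sperm tail (600 bp).

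Markers of other testis cells had 3′ UTR peaks at shares whose intervals also held 4.37%. Aard had 1000 bp, as the single one of 17 Sertoli cell markers (5.88%, 1.05% to 27.0%). Pdgfra, a receptor of platelet-derived growth factor, had 800 bp, as the single one of 5 Leydig cell markers (20%, 3.62% to 62.4%). Neither gene had another peak. None of 6 peritubular myoid and none of 14 macrophage and endothelial markers had a 3′ UTR peak, which allows shares of up to 39.0% and 21.5%. The libraries are bulk, so fewer cells of a type and less RNA per cell cannot be told apart.

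In the cell cycle list 3 of 29 genes had a 3′ UTR peak (10.3%, 3.58% to 26.4%), all wide, with a median of 3800 bp. These were Cdk6, a kinase of the G1 phase (5400 bp), Ccny, a membrane-bound cyclin (3800 bp), and Ccnt2, a cyclin of transcription elongation (3485 bp). Of 60 chromatin and DNA methylation enzymes 3 did (5.0%, 1.71% to 13.7%). Kdm5c, an X-linked H3K4 demethylase, had 5520 bp and Dnmt3a, a de novo DNA methyltransferase, had 4920 bp. In Kdm5b, another H3K4 demethylase, a single bin of 205 bp over the gene's end stood beside 23 intron peaks. Of 42 translation factors and ribosomal proteins 2 did (4.76%, 1.32% to 15.8%): Eif4e2 and Eif2s3x, the X-linked initiation factor subunit (2760 bp). The intervals of the cell cycle, chromatin and translation lists hold the 4.37% of all coding genes.

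The 652 genes were also grouped by words in the authors' gene descriptions, against the 24.1% of all 2710 coding genes in the list that had a 3′ UTR peak. The search patterns were revised once, after the matches and counts of the first patterns had been seen, because parts of words had been matched. Counts of both versions are therefore given, and no group is ranked by its share. Small GTPases and their regulators moved most, from 59 of 225 genes (26.2%) to 22 of 66 (33.3%, 23.2% to 45.3%). RNA binding and processing went from 20 of 76 (26.3%) to 21 of 70 (30%, 20.5% to 41.5%). Genes described as kinases went from 40 of 136 (29.4%) to 36 of 123 (29.3%, 22.0% to 37.8%), and genes whose description holds the word phosphatase stood at 16 of 46 (34.8%, 22.7% to 49.2%) in both. Each of these intervals holds the share of all genes. Receptor and adhesion genes went from 24 of 111 (21.6%) to 16 of 85 (18.8%), and chromatin genes from 11 of 54 (20.4%) to 9 of 38 (23.7%). Cytoskeletal genes went from 37 of 145 (25.5%) to 26 of 97 (26.8%), and membrane traffic genes from 19 of 66 (28.8%) to 16 of 57 (28.1%). Transcription factor words went from 20 of 86 (23.3%) to 17 of 77 (22.1%), and ubiquitin genes from 29 of 121 (24.0%) to 28 of 120 (23.3%). The zinc finger, transporter and uncharacterised groups kept their counts. Translation and ribosome genes went from 7 of 61 (11.5%) to 5 of 55 (9.09%, 3.95% to 19.6%). Spermatogenesis and testis genes went from 4 of 43 (9.30%) to 4 of 41 (9.76%, 3.86% to 22.5%), and mitochondrial and metabolic genes from 23 of 151 (15.2%) to 23 of 146 (15.8%, 10.7% to 22.5%). The intervals of the translation, testis and metabolic groups lie wholly below the 24.1% of all genes. Some misfits remain, since a description can share a word with a group and not its function. With 16 groups and no test, all of these are descriptions. In the revised groups all 16 membrane traffic genes with a 3′ UTR peak also had a peak of another class, whereas 9 of 16 receptor and adhesion genes had none. Over all 652 genes 136 (20.9%) had none. These groups were picked from 16 after the counts were seen. The share with no other class was 45.6% under 20 kb and 8.57% at 100 kb and over. The groups were not matched for span or chromosome.

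Among the phosphatases, Ppp1r12b, a myosin phosphatase subunit, had 6560 bp in 2 peaks, Ctdsp2 had 4200 bp in 2 and Ptpn4, a protein tyrosine phosphatase, had 3690 bp in 2. Ppp2r5e, a PP2A subunit, and Sgpp1, which acts on sphingosine phosphate, had 2665 bp each. The 36 genes of the kinase group include enzymes that act on small molecules or lipids, namely Gk, Pfkfb2, Itpkb, Pikfyve and Pip4k2c, and Cinp, which is described as a partner of a kinase. The widest sums were those of Rock2, Wnk3 (7130 bp), a regulator of ion transport, Map3k2 (5600 bp), of the MAP kinase cascade, Phka2 (5520 bp), of glycogen breakdown, and Cdk6. Of the Wnk3 peak 99.8% also lies inside A230072E10Rik, a long noncoding RNA gene on the opposite strand that is named by peaks of its own. GTPase regulators included Raph1, a lamellipodin of cell migration (9430 bp), Cnksr2, a Ras pathway scaffold (6210 bp), Rasal2, a Ras GTPase activator (5535 bp), and Rabgap1l, which had 2 3′ UTR peaks beside 148 intron peaks. RNA-binding genes after Dcp2 were Rbm33 (5000 bp in 2 peaks), Rbm41 (3680 bp in 2), Sf3b1 and Strbp. Membrane traffic genes were led by Dnm3 with 12710 bp in 2 peaks, Esyt2, a membrane tether (8200 bp), and Cog5, of the Golgi (6150 bp).

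Ubiquitin genes with a 3′ UTR peak numbered 28 of 120 (23.3%), led by Rfwd2 with 9225 bp in its 5 peaks, G2e3 (4305 bp), Ubr7 (4100 bp), Senp5, a SUMO protease (3600 bp in 2), and Mib1, a ligase of Notch signalling (3400 bp). Zinc finger genes numbered 23 of 107 (21.5%), with Zfp182 (6210 bp), Zranb3 (6150 bp in 2 peaks), Zdbf2 (5740 bp) and Zbtb37 (4920 bp in 3) after Zfp407. Genes matched by words for transcription factors were 17 of 77 (22.1%), which include Ube2f, a ubiquitin-conjugating enzyme matched by its letters, and Twistnb, named as a neighbour of such a factor. Among the others were Elf4 (4370 bp), Foxn3 (3280 bp in 3), Klf8 (3220 bp) and Sp4 (2870 bp). Chromatin genes were 9 of 38 (23.7%), with Brwd3 (5520 bp) after Ino80d. Transporters and channels were 29 of 112 (25.9%), with the copper pump Atp7a (6670 bp), the chloride transporter Clcn5 (6440 bp), the calcium pump Atp2b4 (5125 bp) and Abcb8 after Kcnj13. Of the Abcb8 peak 92.1% also lies inside Cdk5, another coding gene. Cytoskeletal genes were 26 of 97 (26.8%), led by Dctn4, a dynactin subunit (6600 bp), Ttll4, a tubulin glutamylase (5330 bp), Cep76, a centriole protein (4600 bp), Dnal1, an axonemal dynein light chain (4305 bp in 2), and Trak2, a mitochondrial transport adaptor (3280 bp). In the receptor group Efnb1, Reep2, Cdh2 and Sema5b had 1600 to 1840 bp. Metabolic genes were led by Mboat2 (4510 bp), Cox16, Coa5, Acox3 and Cyp51, an enzyme of sterol synthesis (3400 bp). The testis group held Strbp, Tdrd5, Spata17 (1435 bp in 2) and Odf2, and the translation group Trmt2b (1380 bp), Mrpl15 (1025 bp) and Iars2 (820 bp in 2) beside the 2 initiation factors. In the group of uncharacterised or family-numbered genes, 53 of 209 (25.4%), Fam199x had 6440 bp in 3 peaks.

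By chromosome, 3′ UTR peaks were most numerous on chromosomes 1 (233), X (138), 5 (115) and 12 (91). The 8 chromosomes with at least 10% of coding genes under any peak held 724 of 783 (92.5%), and the split put chromosome 8 (14.8%) just inside and chromosome 2 (5.78%) just outside. Chromosomes 4, 11 and 19 had none, and chromosomes outside the list were not analysed here. The share of coding genes with a 3′ UTR peak was 13% (11.3% to 15.1%) on chromosome 1, 12.7% (10.8% to 15.0%) on X, 11.8% on 12, 9.78% on 18, 8.20% on 5, 5.74% on 16, 4.10% on 10 and 1.05% on 8. X stood above the 7 well covered autosomes together, at 7.55% (6.93% to 8.22%), but its interval overlapped those of chromosomes 1, 12 and 18. As a part of all coding peaks, 3′ UTR peaks were 4.58% on X (3.89% to 5.39%) and 5.35% on those autosomes (4.94% to 5.78%), with overlapping intervals.

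**Figure D5:**
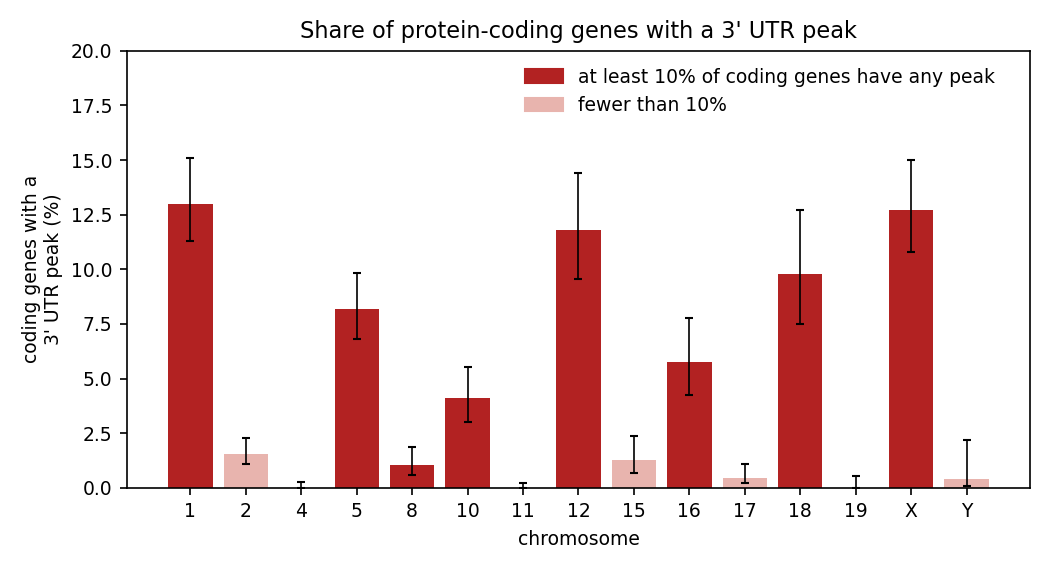
Share of protein-coding genes (%) with a 3′ UTR peak on each chromosome in the list, with Wilson 95% intervals. Dark bars are chromosomes where at least 10% of coding genes have any peak. Chromosomes 1, X and 12 stand highest, at 13%, 12.7% and 11.8%.

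On the thinly covered chromosomes the class looked different. It made up 13.4% of the 439 coding peaks there (10.6% to 16.9%). The peaks were narrower, with a median of 600 bp (400 to 1200 bp) against 1400 bp on the well covered ones, as were intron peaks there, at 600 bp against 1435 bp. Of the 44 genes with a 3′ UTR peak on these chromosomes 29 had no other peak (65.9%, 51.1% to 78.1%), against 107 of 608 (17.6%, 14.8% to 20.8%) on the others. They included 9 of the 10 genes on chromosome 15. On chromosome 10, which was well covered, the share with no other peak was also high, at 51.2% of 41 genes (36.5% to 65.7%), while on chromosome 12 it was 7.41% of 81. The part of the longer numbered set that the list keeps differs between chromosomes, and its role in these shares was not tested.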

How the data were processed

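RIP-seq was made from 1 anti-BUD31 and 1 input library of germ cells, with groups taken from the titles. The submitters' processing notes name TopHat2 2.0.13 and mm10. Not given in the sources used here are the peak caller, threshold and annotation release. The deposited file holds 1 row per peak with start, end, class, transcript and gene, per the file headers, and no counts.

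Peaks with class UTR3 and kind protein-coding were kept. Width is end less start plus 1. Genes were matched by gene number to a RefSeq table of GRCm38.p6 (650 of 652 matched), and strand came from the RefSeq promoter table (511 genes, none on chromosome 18). Other peaks of a gene counted whatever their transcript's kind. Interval functions were tested on simulated data. The members and gene lists were chosen with earlier results of these data known.

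Named genes were Bud31 and Cdk2, the 10 genes with most 3′ UTR peaks and the 10 widest peaks overall and among genes with no other class. Up to 8 members per list and 5 per description group were added by summed width, with those beside each limit. Ties were taken by symbol. Some genes that this rule names are not reported here. The patterns behind the description groups were rewritten once after their matches and counts had been seen, because substrings had matched wrongly. Some wrong matches remain, and the groups were not revised again. The report gives the counts of both versions, and the genes named from these groups follow the second. The limits on span and distance and the genes singled out for overlaps, position or microRNA hairpins were also chosen after values were seen. Alternatives were wider peaks, other chromosome sets, other matching, joining and overlap rules. Python 3.11.15, numpy 2.4.6, pandas 2.3.3, scipy 1.17.1 and matplotlib 3.10.9 were used.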

Additional observations from a re-analysis of the deposited data

How the results depend on the processing

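Of 26 alternative values for 6 results, 17 stayed within the counting interval of the reported value or, for counts, within 1.5 times, and 9 moved beyond it. Of the alternatives 10 were added after seeing the data. Dropping peaks narrower than the median of their chromosome left 400 genes with a 3′ UTR peak, of which 70.5% had an intron peak and 11.8% an exon peak. That filter drops peaks of every class, the 3′ UTR peaks included, and why the shares changed was not tested. Without chromosome 1 the share with an exon peak was 14.8%; the cause was not tested. The median width went from 1230 bp (1200 to 1400 bp, an interval from the binomial ranks) to 1600 bp both with only the widest peak of each gene and with peaks joined within 1000 bp, by construction. The share of peaks at the gene's 3′ end went from 22.1% to 60.7% when a distance of up to 1000 bp counted and to 26.0% with the widest peak per gene, and the share that overlap another gene went from 12% to 7.92% when 50% of the peak had to be covered. No paired analysis was possible because there is 1 library per group. Depth is unknown, so a gene without a 3′ UTR peak was not shown to lack recovery there.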
